A study of Mus musculus with 4 samples.

Results

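In the first meiotic prophase chromosomes are cut by programmed DNA double-strand breaks, and 7 mouse genes that act in placing, making or processing these breaks were followed in single testis cells of wild-type and *Meioc*-null mice. The genes were taken by symbol, as the 7 of 32285 counted genes named *Spo11*, *Mei1*, *Mei4*, *Rec114*, *Ankrd31*, *Prdm9* and *Zcwpw1*, and the rule used no measured value. Cells were dissociated from 1 testis per pup at postnatal day 15, and droplet libraries that count 3′ ends of transcripts as unique molecular identifiers (UMIs) were made in 2 batches, each a littermate pair of 1 wild-type and 1 *Meioc*-null pup on the C57BL/6N strain. The null allele was *Meioc* tm1.1Dpc, backcrossed to C57BL/6N. All mice, wild type included, were also heterozygous for *Hspa2* tm1Dix and homozygous for a *ROSA26* tdTomato reporter whose stop was intact.

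Meiotic breaks are made by a topoisomerase-like enzyme whose catalytic subunit is SPO11. Its activity depends on REC114 and MEI4, which assemble on chromosome axes, and on MEI1. ANKRD31 is a partner of REC114. PRDM9 is a zinc-finger methyltransferase that marks the sites where most breaks will fall, and ZCWPW1 reads the histone marks that PRDM9 writes and is needed for timely repair. In the testis these steps belong to the leptotene and zygotene stages of the first meiotic prophase, after STRA8 and MEIOSIN have driven entry into meiosis. MEIOC binds YTHDC2, an RNA helicase, and is needed for germ cells to leave the mitotic programme.

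In GRCm38 (GENCODE vM21) the protein-coding genes lie at chr2:172977700-172993576 (*Spo11*, plus strand), chr15:82069996-82126814 (*Mei1*, plus), chr9:81863670-82206007 (*Mei4*, plus), chr9:58652850-58743964 (*Rec114*, minus), chr13:96748272-96910039 (*Ankrd31*, plus), chr17:15543079-15564354 (*Prdm9*, minus) and chr5:137787798-137822621 (*Zcwpw1*, plus). *Rec114* shares its locus with *Gm20620* on the same strand, *Mei4* with *Gm37837* and *Gm15896*, and *Ankrd31* with *Gm27792*, so UMIs of these 3 genes are uncertain to the extent that counting split or dropped reads of the overlaps. Promoter windows of 300 bases were taken from RefSeq (GRCm38.p6) for 6 of the genes (8 windows), with no entry for *Spo11*, which was not searched. The windows ran from 250 bases before a start site to 50 after it. They were searched on both strands for CNCCTCAG, the motif named for STRA8-MEIOSIN, for TCCCGC, an E2F motif, and for CACGTG, the E-box. CNCCTCAG was found in 1 of the 8 windows, that of *Prdm9*, and in 7.94% of the 32851 promoter windows of the table. TCCCGC was found in 3 of the 8 windows, of *Prdm9* and *Rec114*, and in 20.0% of all windows. CACGTG was found in 1 of the 8, of *Rec114*, and in 7.15% of all. The stretches around the matches nearest a start site are given in the direction of transcription, since *Prdm9* and *Rec114* are the genes with matches and have different courses along germ cell development. Capitals mark the matched letters, and a match is a description of the sequence only.
*Prdm9* (chr17:15564313-15564420, minus strand): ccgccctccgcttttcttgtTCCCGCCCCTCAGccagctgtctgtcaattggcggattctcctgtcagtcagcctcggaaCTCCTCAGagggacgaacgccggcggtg
*Rec114* (chr9:58741510-58741598, minus strand): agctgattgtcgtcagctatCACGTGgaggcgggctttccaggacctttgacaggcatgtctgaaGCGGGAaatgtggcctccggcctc
In *Prdm9* the TCCCGC letters begin 46 bases before the start site and the first CNCCTCAG match 41 bases before it, so that they share 1 base. The second CNCCTCAG match of *Prdm9* lies just after the start site. The TCCCGC match in the other *Prdm9* window, 230 bases before its start site and on the opposite strand, is not printed. In *Rec114* the CACGTG letters begin 19 bases before the RefSeq start site, and GCGGGA is TCCCGC read on the other strand. The RefSeq windows of *Rec114* and *Mei1* lie inside the GENCODE genes and not at their annotated starts, so the bases around those starts were not searched.

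The 4 libraries held 158291903 to 190455307 UMIs, and 5644 to 7505 cells each passed the limits of more than 1000 detected genes and under 10% mitochondrial UMIs and were not removed as doublets. The libraries shared 7 to 16 cell barcodes per pair. Wild-type germ cells were clustered without using the 7 genes, and each cell was assigned to the cluster most common among its nearest wild-type neighbours. The 9 clusters on the path of development were numbered from undifferentiated spermatogonia-like cells (cluster 1) through differentiating spermatogonia-like cells (clusters 2 to 5), a cluster led by *Stra8* and *Hist1h2aa* that no marker list could name (cluster 6), early spermatocyte-like cells (clusters 7 and 8, led by *Pbx3*, *Fbxo47* and *Terb1* and by *Zfy2*, *Rad51ap2* and *Meiob*) to pachytene spermatocyte-like cells (cluster 9). Cluster 9 held 255 and 297 wild-type cells and 0 *Meioc*-null cells, so the genotypes were compared in clusters 1 to 8. Since only wild-type cells formed the clusters, *Meioc*-null cells unlike any wild-type cell had no cluster of their own. The paper reports a cluster of *Meioc*-null spermatocytes, mainly in G2/M phase, and some *Meioc*-null cells designated pachytene. Which clusters took those cells here was not tested. *Meioc* itself was at 626 and 681 CPM (UMIs of a gene per 1000000 UMIs of the summed cells) in wild-type cluster 6, with 666 and 635 CPM for the *Meioc*-null replicates. No source used here gives where the counted 3′ ends lie relative to the deleted part, so this level does not check the labels. In the tests within a cluster without a block, p-values measure the spread between the mice of a genotype, 2 each and 1 from each batch. In fits with the replicate number or the library as a term, the differences this term describes are taken out first. Their p-values measure the spread that remains.

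In wild type the 7 genes did not come on together (plot of levels by cluster). *Rec114* was at 56.8 and 55.6 CPM already in undifferentiated cells, reached 103 and 85.6 CPM in cluster 6, and was down to 22.2 and 17.5 CPM in cluster 7. *Mei1* went from 7.8 and 8.5 CPM in cluster 1 to 69.8 and 76.4 CPM in cluster 6, and *Mei4* from 11.1 and 12.6 to 38.3 and 35.3 CPM. These 3 genes had their highest wild-type means in cluster 6, the *Stra8*-high cluster, and *Mei1* and *Mei4* were at 2.35 CPM or less in every wild-type library of clusters 8 and 9.

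*Prdm9*, *Zcwpw1*, *Ankrd31* and *Spo11* had their highest means 1 cluster later, in cluster 7. *Prdm9* rose from 3.68 and 2.23 CPM in cluster 1 to 212 and 200 CPM in cluster 6 and 273 and 258 CPM in cluster 7, then was at 18.3 and 16.6 CPM in cluster 8. *Zcwpw1* was at 246 and 234 CPM in cluster 1, 1350 and 1378 CPM in cluster 7, and 158 and 163 CPM in cluster 8. *Ankrd31* was at 82.9 and 88.8 CPM already in cluster 1, above *Rec114* there, and at 513 and 609 CPM in cluster 7. *Spo11* was at 8.75 CPM or less in clusters 1 to 6 of every library and at 123 and 150 CPM in wild-type cluster 7. *Spo11* and *Ankrd31* were also the genes that stayed on: they were at 74.7 and 54.6 CPM and at 196 and 222 CPM in the pachytene-like cells of cluster 9, where *Rec114*, *Mei1*, *Mei4* and *Zcwpw1* were below their levels in cluster 1 and *Prdm9* was back near its own, at 2.32 and 2.37 CPM. Since the cells were clustered, these differences between clusters are a description without a test.

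**Figure D1:**
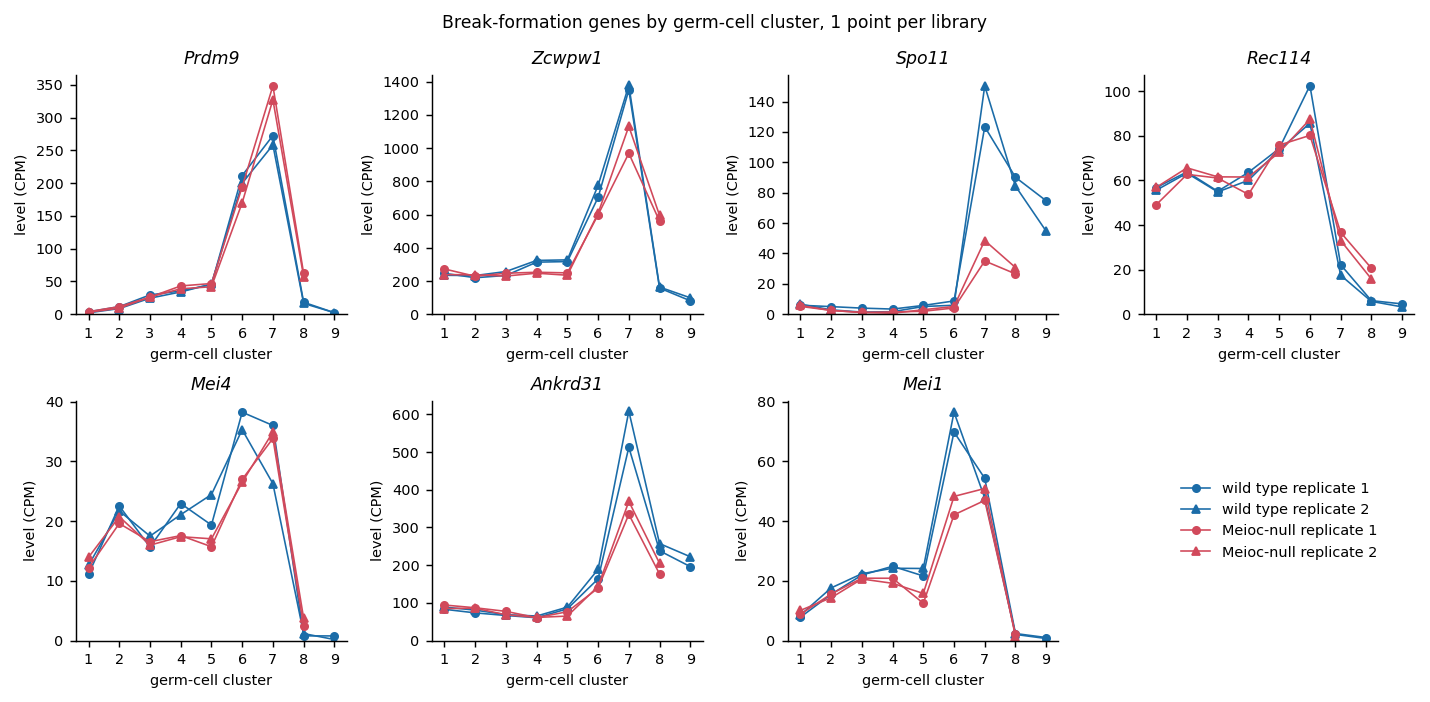
Level of each gene (y axis, CPM of summed UMIs, linear from 0, own scale in each panel) in germ-cell clusters 1 to 9 (x axis), with 1 point for each library, blue for wild type and red for Meioc-null, circles for batch 1 and triangles for batch 2. Spo11 in cluster 7 is at 123 and 150 CPM in wild type against 35.1 and 48.5 CPM in Meioc-null, and no Meioc-null cells are in cluster 9.

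A finer order was read from positions along the line through the cluster centres, given as the percent of wild-type germ cells that come before. Wild-type cells were placed on this line, and every cell of either genotype took the mean position of its 30 nearest wild-type cells. A *Meioc*-null position is thus its likeness to wild-type cells. Levels were taken in 20 bins of equal numbers of wild-type cells (plot of levels along the ordering). The position of rise is where a gene first reaches 50% of its highest bin. *Stra8*, the gene that marks meiotic entry, reached it at 55.7 and 55.5% in the wild-type libraries. *Mei1* reached it at 57.5 and 55.5%, after *Stra8* in replicate 1 and level with it in replicate 2, and *Prdm9* at 58.3 and 59.3%. *Stra8* and *Mei1* both came before *Prdm9* in each library. The position of *Mei1* depended on the share used, and was far earlier when read at 25% of the highest bin (given in the closing section).

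*Zcwpw1* reached 50% of its highest bin at 62.7 and 62.3%, *Ankrd31* at 68.0 and 67.2%, and *Spo11* last, at 73.4 and 72.9%. The steps from *Prdm9* to *Zcwpw1*, to *Ankrd31* and to *Spo11* were each wider than the gap between the libraries, but with the rise read at 25% of the highest bin *Zcwpw1* (53.0%) came before *Prdm9* (54.0%). *Rec114* was at 39.9 and 42.6% of its highest bin in the first bin and crossed 50% at 15.2 and 13.2%, so it had no sharp onset. *Mei4* crossed 50% at 52.8% in 1 library and 11.4% in the other, so it has no position in the order. The highest bin of *Mei4* was centred at 72.5% in both libraries, as was that of *Prdm9*, after *Stra8* fell below 50% (69.2 and 68.2%). The genes left in a related order. *Rec114* fell below 50% at 66.8 and 65.0%, *Mei1* at 75.3 and 75.1%, *Mei4* at 76.9 and 76.2%, *Prdm9* at 80.0 and 78.7%, *Zcwpw1* at 80.6 and 80.3%, *Ankrd31* at 85.1 and 84.2% and *Spo11* at 88.0 and 86.8%. *Rec114* was thus below 50% of its highest level before *Spo11* reached 50% of its own in both libraries. A mitochondrial limit of 5% left 30 and 38 wild-type cells in cluster 6 and 9 and 14 in cluster 7, too few to read these positions.

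**Figure D2:**
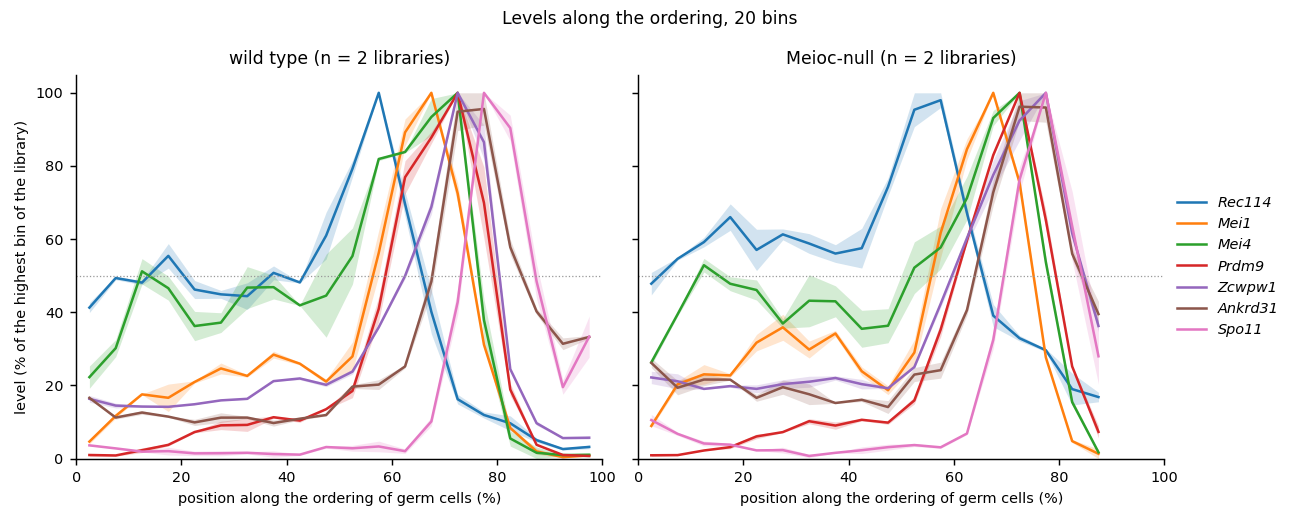
Level of each gene as a percent of the highest bin of its library (y axis) against position along the ordering of germ cells (x axis, percent of wild-type germ cells), as the mean (line) and range (band) of the 2 libraries of wild type (left) and Meioc-null (right). In wild type Rec114 peaks in the bin centred at 57.5% and Spo11 in the bin at 77.5%. The Meioc-null curves end at 87.5% because the last 2 bins hold fewer than 20 cells per library.

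*Meioc*-null cells filled the ordering up to the bin centred at 87.5%. *Mei1* reached 50% of its highest bin at 56.7 and 54.9%, a range that overlaps wild type. *Zcwpw1* did so at 59.7 and 59.6% and *Prdm9* at 60.4 and 60.6%, so that *Zcwpw1* came before *Prdm9* in the *Meioc*-null libraries and after it in the wild-type libraries. *Ankrd31* crossed at 64.3 and 63.7% and *Spo11* at 69.8 and 69.2%, both before wild type, but toward lower highest bins. For *Spo11* the highest bin was at 57.5 and 72.4 CPM in *Meioc*-null and at 194 and 207 CPM in wild type. For *Zcwpw1* the highest bin was also lower, at 1162 and 1216 CPM in *Meioc*-null against 1521 and 1627 CPM in wild type. It was centred at 77.5% instead of 72.5%, and the fall below 50% came at 84.9 and 84.7% against 80.6 and 80.3%. These positions were not tested between the genotypes, and the exact permutation test on 2 against 2 libraries could not go below p = 0.333.

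The genotypes were compared within each cluster with edgeR over all genes tested, and a gene passed at an adjusted p under 0.05 with a log2 fold change (wild type over *Meioc*-null) beyond 0.1 (plot of fold changes). In clusters 1 to 4 none of the 7 genes passed, beside 0%, 0.0346%, 0.0712% and 0.00856% of all genes, and 0, 0, 1 and 3 of the 7 had an unadjusted p under 0.05, as had 1.59%, 1.22%, 1.95% and 4.54% of all genes. In cluster 5 none passed beside 0.55% of all genes, with 5 at an unadjusted p under 0.05 beside 9.41% of all genes. DESeq2 also called none in clusters 1 to 5. With the replicate number (the littermate batch) as a block, 1 gene passed in cluster 4 beside 2.61% of all genes, and 5 passed in cluster 5 beside 6.56%, all higher in wild type. The blocked adjusted p in cluster 5 was 0.0312 for *Mei4*, 0.0156 for *Ankrd31* and 2.49e-05 for *Zcwpw1*, beside those of *Spo11* and *Mei1* given with these genes. In cluster 6, 2 of the 7 passed (13.7% of all genes, 5.26% in favour of wild type and 8.44% of *Meioc*-null), both with more in wild type, and 6 passed with the block (32% of all genes). The cluster 6 count was 6 with cells placed without the called genes (18.3% of all genes under that placing), 1 with a mitochondrial limit of 5% (1.4%), 1 without *Meioc*-null replicate 1 (6.49%) and 3 without wild type replicate 1 (9.99%). Placing without the called genes compared other cells. It left 1159 and 781 *Meioc*-null cells in cluster 6, against 1510 and 1126, and 783 and 761 wild-type cells, against 789 and 773. The count of all genes there went from 1689 to 1119 without wild type replicate 2 and 800 without *Meioc*-null replicate 1. The blocked adjusted p there was 0.00397 for *Spo11* and 0.000335 for *Zcwpw1*. In cluster 7, 3 passed (35.9% of all genes, 16.4% in favour of wild type and 19.5% of *Meioc*-null). Wild type had more of 2 of them and *Meioc*-null of 1, and 5 passed with the block beside 51.3%. In cluster 8, 6 passed (58% of all genes, 28.2% in favour of wild type and 29.8% of *Meioc*-null). *Meioc*-null had more of 4 and wild type of 2. The median log2 fold change over the 7 genes was 0.34, 0.45, 0.38, 0.10 and -1.53 in clusters 4 to 8, beside 0.00, -0.00, -0.01, -0.03 and -0.01 over all genes tested.

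Cells of the 2 genotypes were not at equal positions within the late clusters. The median position in cluster 6 was 61.9 and 62.2% in wild type against 60.7 and 60.0% without *Meioc*, in cluster 7 it was 75.5 and 76.2% against 70.4% in each *Meioc*-null library, and in cluster 8 it was 88.6 and 88.8% against 84.4 and 84.2%. *Stra8* moved with the genotype there, at 14.6 and 14.5 CPM in wild-type against 488 and 464 CPM in *Meioc*-null cells of cluster 8. The summed levels of several marker lists also separated the genotypes. Those of the 7 differentiating spermatogonia markers were 764 to 815 CPM in wild type against 832 to 859 CPM without *Meioc* in cluster 6, 292 to 348 against 551 to 576 in cluster 7 and 220 to 242 against 823 to 929 in cluster 8. The 7 early spermatocyte markers summed to more in wild type in cluster 5 (1397 to 1646 against 1168 to 1277 CPM) and cluster 6 (2746 to 3034 against 2567 to 2670 CPM). In the later clusters they summed to less in wild type, at 4580 to 4852 against 5312 to 5471 CPM in cluster 7 and 4684 to 5259 against 5460 to 6069 CPM in cluster 8.

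The 8 pachytene markers were at 336 to 357 against 224 to 241 CPM in cluster 7 and 779 to 893 against 277 to 291 CPM in cluster 8. The 7 undifferentiated spermatogonia markers were low, at 11.8 to 14.6 against 4.63 to 8.46 CPM in cluster 7 and 17.6 to 21.3 against 4.17 to 5.95 CPM in cluster 8. The 5 germ cell markers were at 2026 to 2117 against 1916 to 1931 CPM in cluster 5 and 2636 to 2848 against 3278 to 3282 CPM in cluster 7. Endothelial sums were higher in wild type in clusters 5 (38.8 to 39.1 against 28.1 to 35.8 CPM), 6 (35.6 to 40.4 against 31.3 to 34.1 CPM) and 8 (8.82 to 11.7 against 5.6 to 6.59 CPM), and macrophage sums, at 4.44 CPM or less, were higher in *Meioc*-null in clusters 5 to 7. Sertoli, Leydig and myoid sums overlapped in clusters 5 to 8. The part of these differences in the results was not tested, beyond computing each value also on cells matched on position. For matching, equal numbers of cells per library were drawn once within each quartile of the wild-type positions of a cluster. This left 195 cells per library in cluster 8, and differences of position within a quartile can remain.

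*Spo11*, the catalytic subunit, was lower in *Meioc*-null cells of clusters 7 and 8. Its level in cluster 7 was 123 and 150 CPM in wild-type against 35.1 and 48.5 CPM in *Meioc*-null replicates 1 and 2. Both wild-type libraries were above both *Meioc*-null libraries. The log2 fold change was 1.76 ± 0.21 (SE, edgeR adjusted p = 0.000349), a 3.39-fold difference. In cluster 8 *Spo11* was at 90.2 and 84.4 CPM against 26.6 and 30.8 CPM, again without overlap, and the log2 fold change came to 1.65 ± 0.13 (SE, edgeR adjusted p = 1.29e-10). On cells matched on position the values were 1.23 in cluster 7 and 2.23 in cluster 8, and both passed the test.

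In the early clusters *Spo11* was low, with 20 to 56 UMIs per library in cluster 5. There it was at 5.79 and 5.10 CPM in wild type against 1.96 and 2.97 CPM in *Meioc*-null, and the log2 fold change came to 1.21 ± 0.35 (SE, edgeR adjusted p = 0.187, and 0.00247 with the replicate block). After thinning every cell to 3000 UMIs, 27.7% (95% exact binomial interval 23.2 to 32.5) and 34.5% (31.3 to 37.7) of wild-type cells in cluster 7 had a *Spo11* UMI. In *Meioc*-null cells the shares were 8.72% (6.91 to 10.8) and 12.3% (10.0 to 15.0). The unthinned shares were 63.8 and 67.7% against 29.0 and 44.1%, at median depths of 9658 to 13244 UMIs. In peritubular-myoid-like cells, which lack meiosis, the thinned shares were 0.139 to 0.546% at median depths of 8406.5 to 11394 UMIs.

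*Rec114* and *Mei4* encode the axis-bound partners of the break machinery. *Rec114* was at 103 and 85.6 CPM in wild-type against 80.2 and 87.4 CPM in *Meioc*-null cells of cluster 6, and these ranges overlapped. In cluster 7 it was at 22.2 and 17.5 CPM in wild type against 36.7 and 33.1 CPM in *Meioc*-null, and in cluster 8 at 6.10 and 5.76 against 20.6 and 15.8 CPM. Both *Meioc*-null libraries were above both wild-type libraries in these later clusters, where the gene was past its peak. The log2 fold change was -0.79 ± 0.17 in cluster 7 (SE, edgeR adjusted p = 0.00197) and -1.53 ± 0.24 in cluster 8 (SE, edgeR adjusted p = 7.64e-06). On cells matched on position it was -0.51 and -0.75, and both still passed.

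Wild type had more *Mei4* in cluster 6, with 38.3 and 35.3 CPM against 27.0 and 26.5 CPM. The groups did not overlap, and the log2 fold change was 0.52 ± 0.12 (SE, edgeR adjusted p = 0.0164). On matched cells it was 0.54 and passed. Without *Meioc*-null replicate 1 the value was 0.46 and did not pass (edgeR adjusted p = 0.128), nor did it with a mitochondrial limit of 5% (0.77, adjusted p = 0.322). In cluster 7 *Mei4* was at 36.0 and 26.3 CPM in wild type against 33.9 and 34.9 CPM in *Meioc*-null, with overlapping ranges. In cluster 8 it passed with higher values in *Meioc*-null (log2 fold change -1.55 ± 0.51, SE, edgeR adjusted p = 0.0121), but on 5, 16, 7 and 17 UMIs in the 4 libraries. That call was lost with DESeq2, with doublets kept, without wild type replicate 1 and without *Meioc*-null replicate 2, and too few UMIs were left for a fit on matched cells.

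*Ankrd31*, the partner of *Rec114*, was higher in wild type in the clusters where *Spo11* was. Its level was 513 and 609 CPM in wild-type against 335 and 369 CPM in *Meioc*-null cells of cluster 7, and no libraries overlapped. The log2 fold change was 0.72 ± 0.15 (SE, edgeR adjusted p = 0.00199), and 0.69 on matched cells. In cluster 8 the levels were 238 and 257 against 177 and 205 CPM, and the log2 fold change came to 0.44 ± 0.12 (SE, edgeR adjusted p = 0.0043). The cluster 8 value was 0.71 on matched cells and 0.32 without wild type replicate 2 or 0.28 without *Meioc*-null replicate 1, and it did not pass without either of these libraries. In cluster 6 *Ankrd31* was at 164 and 189 against 139 and 144 CPM and did not pass (log2 fold change 0.38 ± 0.13, SE, edgeR adjusted p = 0.069, and 0.000343 with the block). It also passed without the filter on low UMIs, among genes seen in at least 25% of cells, without wild type replicate 1 (0.54) and with cells placed without the called genes (0.73), while without wild type replicate 2 (0.21) and on matched cells (0.22) it did not.

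*Mei1*, required for break formation in both sexes, differed at its peak. In cluster 6 it was at 69.8 and 76.4 CPM in wild-type against 42.1 and 48.2 CPM in *Meioc*-null libraries. The libraries did not overlap, and the log2 fold change was 0.75 ± 0.14 (SE, edgeR adjusted p = 0.00455), a 1.68-fold difference. The value was 0.68 on matched cells and passed. In cluster 5 the levels were 21.6 and 24.1 against 12.5 and 15.7 CPM. The log2 fold change, 0.74 ± 0.19 (SE), passed with the replicate block (edgeR adjusted p = 2.26e-05) and not without it (0.127), while leaving out *Meioc*-null replicate 2 gave 0.99 and a pass and leaving out *Meioc*-null replicate 1 gave 0.49 and none. In cluster 7 *Mei1* was at 54.3 and 47.7 CPM in wild type against 46.9 and 50.9 CPM in *Meioc*-null, which overlapped (log2 fold change 0.10 ± 0.14, SE), while matched cells gave 0.57 and passed (edgeR adjusted p = 0.00621). The *Mei1* call in cluster 7 thus depended on which cells were compared.

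*Prdm9*, which sets where breaks fall, was close between the genotypes while it rose. It was at 212 and 200 CPM in wild-type against 195 and 170 CPM in *Meioc*-null cells of cluster 6, and at 273 and 258 against 349 and 327 CPM in cluster 7. The libraries were apart in each cluster, with more in wild type in the first and less in the second, and neither passed (edgeR adjusted p = 0.16 and 0.0612, and 0.0299 and 0.00242 with the block). The cluster 6 value was 0.23, or 0.49 and a pass with cells placed without the called genes, and the cluster 7 value of -0.30 passed, at -0.31, among genes seen in at least 25% of cells. On matched cells these values were 0.11 and -0.12, and neither passed. In cluster 8 *Prdm9* was at 18.3 and 16.6 CPM in wild type against 62.3 and 57.3 CPM in *Meioc*-null. All *Meioc*-null values were above all wild-type values, and the log2 fold change was -1.71 ± 0.14 (SE, edgeR adjusted p = 2.05e-10), or 3.28-fold higher in *Meioc*-null. On matched cells it was -0.63, less than the full difference, and passed (edgeR adjusted p = 0.00216).

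*Zcwpw1*, the reader of the marks of PRDM9, changed sides between clusters 7 and 8. In cluster 7 it was at 1350 and 1378 CPM in wild type against 969 and 1131 CPM in *Meioc*-null, and in cluster 8 at 158 and 163 CPM against 560 and 595 CPM. Wild-type libraries were above *Meioc*-null libraries in the first and below them in the second. The cluster 7 difference (log2 fold change 0.42 ± 0.18, SE) did not pass (edgeR adjusted p = 0.0721). It passed with the block (1.56e-05), with DESeq2, among genes seen in at least 25% of cells, with cells placed without the called genes, and without *Meioc*-null replicate 2, where it was 0.63. Without *Meioc*-null replicate 1 it was 0.24 and did not pass, and on cells matched on position it did not pass either. The cluster 8 difference was -1.78 ± 0.13 (SE, edgeR adjusted p = 4.1e-11), and -1.16 on matched cells, which also passed. After thinning to 3000 UMIs a *Zcwpw1* UMI was seen in 37.7% (95% exact binomial interval 32.9 to 42.7) and 38.0% (34.9 to 41.1) of wild-type cells of cluster 8 and in 79.4% (73.0 to 84.8) and 79.5% (74.2 to 84.2) of *Meioc*-null cells. Unthinned shares were 81.7 and 79.8% against 100% and 98.9%, and the thinned share in myoid-like cells was 1.88 to 3.2%.

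**Figure D3:**
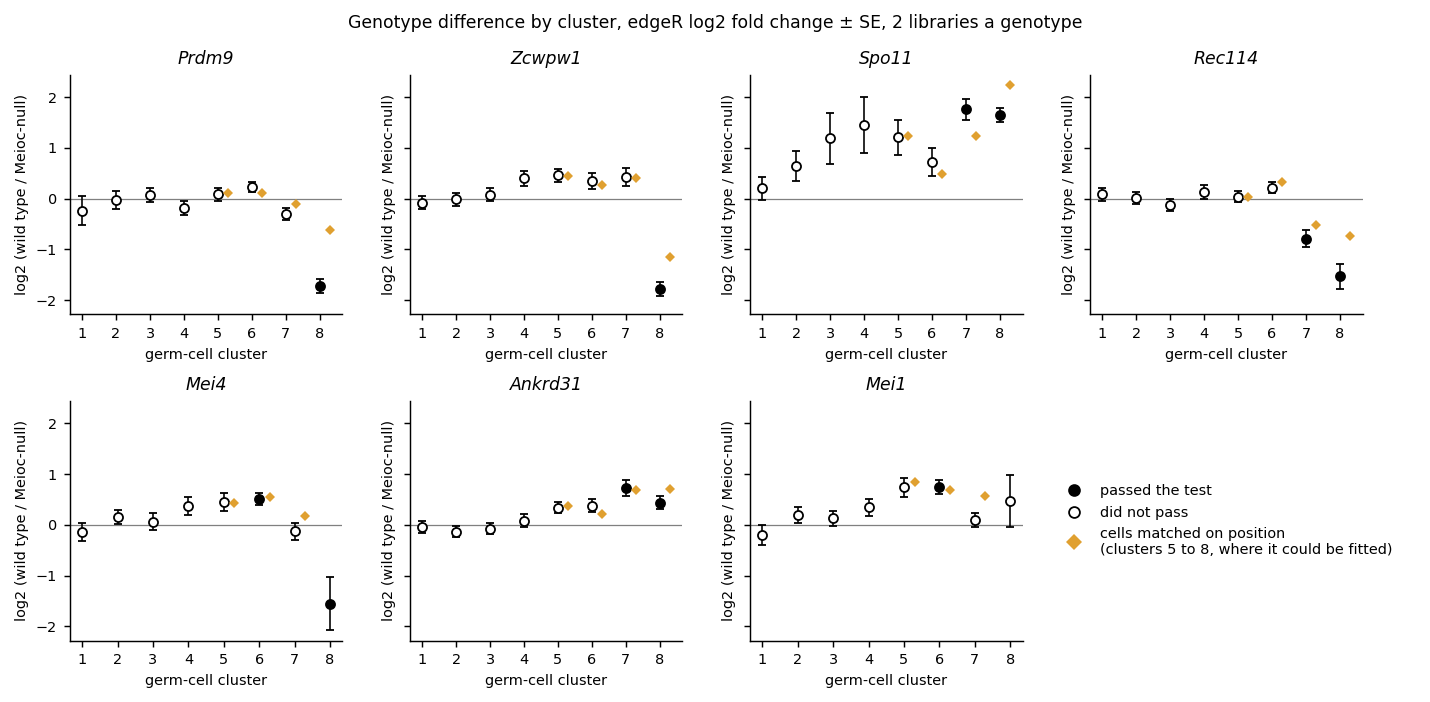
Log2 fold change of wild type over Meioc-null (y axis, edgeR, bars are SE, 2 libraries a genotype) in germ-cell clusters 1 to 8 (x axis) for each gene, filled where it passed the test and open where it did not, with diamonds for cells matched on position. Spo11 and Ankrd31 are above 0 in clusters 7 and 8, and Zcwpw1, Prdm9, Rec114 and Mei4 are below 0 in cluster 8.

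A difference in 1 cluster and none in the next does not show that the effect changed, so the change itself was tested in 1 edgeR fit over all clusters with library as a term. No gene of the 7 changed its genotype effect between any neighbouring clusters up to cluster 6, beside 0.0167%, 0.0279%, 0.0223% and 0% of all genes for the steps up to cluster 5 and 7.58% from cluster 5 to 6. An unadjusted p under 0.05 was seen there for *Mei1* from cluster 1 to 2 and for *Zcwpw1* from cluster 3 to 4, beside 2.16% and 4.58% of all genes. From cluster 6 to 7, 6 of the 7 changed (21.4% of all genes). The effect moved toward wild type for *Spo11* (1.03 ± 0.35 on the log2 scale, SE, edgeR adjusted p = 0.0398) and *Ankrd31* (0.32 ± 0.09), and toward *Meioc*-null for *Rec114* (-1.06 ± 0.16), *Mei1* (-0.70 ± 0.14), *Mei4* (-0.69 ± 0.17) and *Prdm9* (-0.56 ± 0.08). From cluster 7 to 8, 3 changed (27.5% of all genes), each toward *Meioc*-null. These were *Zcwpw1* (-2.02 ± 0.10, SE, edgeR adjusted p = 5.56e-22), *Prdm9* (-1.23 ± 0.13) and *Mei4* (-1.22 ± 0.43). Without the library term 3 passed from cluster 6 to 7 (*Mei1*, *Prdm9* and *Rec114*, beside 9.53% of all genes) and 2 from cluster 7 to 8 (*Prdm9* and *Zcwpw1*, beside 18.4%). These fits used all cells of a cluster, and the change was not tested on cells matched on position. Between clusters 6 and 7 the values printed for matched cells lay closer together than the full values for *Mei1*, *Mei4* and *Prdm9*. They lay further apart for *Ankrd31*.

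A list of 15 partner, control and break-processing genes was read from the same fits (plot of pathway fold changes). None passed in clusters 1 to 5 without the replicate block, beside 0 to 0.55% of all genes. An unadjusted p under 0.05 was seen for 2 in cluster 4 and 3 in cluster 5, beside 4.54% and 9.41% of all genes. With the block 1 passed in cluster 4 and 2 in cluster 5, beside 2.61% and 6.56% of all genes. In cluster 6, 3 of 14 tested passed beside 13.7% of all genes (7 with the block beside 32%), in cluster 7, 9 of 14 beside 35.9%, and in cluster 8, 11 of 15 beside 58%. The median log2 fold change of those tested was 0.17, 0.35 and 0.18 in these clusters, beside -0.01, -0.03 and -0.01 over all genes. On cells matched on position *Iho1* was the 1 gene of the list that passed in cluster 6 (13.8% of all genes), with *Trip13* at -0.26 and *Zcwpw2* at 0.56. In cluster 7 the calls of *Atm* (-0.25) and *Trip13* (-0.28) were lost on matched cells, while *Iho1* (0.43, edgeR adjusted p = 0.00712), *Ewsr1* (0.38, 0.0171) and *Hormad1* gained one, so that 10 passed beside 34.9% of all genes. In cluster 8 the calls of *Iho1* (-0.54), *Hells* (-0.28), *Exo1* (-0.43) and *Top6bl* (*Gm960*, 0.26, the opposite direction) were lost and *Hormad1* gained one, *Morc2b* could not be tested, and 7 passed beside 49.2%.

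Among the partners of SPO11, *Top6bl* (listed as *Gm960*), the partner subunit of the enzyme, did not pass in cluster 7, where its means were 78.7 CPM in wild type against 79.5 CPM in *Meioc*-null. In cluster 8 *Meioc*-null cells had more of it, with means of 40.2 CPM in wild type and 56.5 CPM without *Meioc* (log2 fold change -0.44 ± 0.13, SE, edgeR adjusted p = 0.00455), and its difference from *Spo11* was not tested. On matched cells of cluster 8 *Top6bl* was at 0.26, the opposite direction, and did not pass. *Iho1* (listed as *Ccdc36*), which binds REC114 and MEI4 at axes, was higher in wild type in cluster 6 (log2 fold change 0.58 ± 0.10, SE, edgeR adjusted p = 0.00388) and higher in *Meioc*-null in cluster 8 (-0.94 ± 0.21, adjusted p = 0.000428), the directions that *Mei4* also had. In cluster 8 the *Iho1* call was lost on matched cells (-0.54), and the *Mei4* call there rested on few UMIs. *Hormad1*, an axis protein, passed in none of the 8 clusters without the block, and had more in *Meioc*-null cluster 7 with it (-0.38, edgeR adjusted p = 0.000101). On matched cells it passed at -0.49 in cluster 7 and -0.57 in cluster 8. *Trip13*, the ATPase that strips HORMA proteins from axes, was higher in *Meioc*-null in clusters 6 (-0.34 ± 0.10) and 7 (-0.39 ± 0.13). On matched cells it was at -0.26 and -0.28 and passed in neither.

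*Atm*, the kinase that limits the number of breaks, was higher in *Meioc*-null in cluster 7 (-0.49 ± 0.11, SE, edgeR adjusted p = 0.00317) and in cluster 8 (-1.72 ± 0.14, adjusted p = 1.51e-10), where matched cells gave -1.001 and a pass. *Zcwpw2*, another reader of the marks of PRDM9, was higher in wild type in cluster 6 (0.79 ± 0.17), cluster 7 (1.59 ± 0.13) and cluster 8 (2.28 ± 0.21), with means of 150 and 51.2 CPM in cluster 7. *Hells*, a remodeller that works with PRDM9, was higher in wild type in cluster 7 (0.56 ± 0.19) and in *Meioc*-null in cluster 8 (-1.14 ± 0.15). On matched cells *Atm* in cluster 7 (-0.25), *Zcwpw2* in cluster 6 (0.56) and *Hells* in cluster 8 (-0.28) did not pass. Of the genes whose products bind PRDM9, *Cxxc1* passed in cluster 7 (0.49 ± 0.12) and *Ewsr1* in cluster 8 (0.73 ± 0.12, and 0.34 and a pass on matched cells), each with more in wild type. *Morc2b*, needed for meiotic prophase, had 88 and 220 UMIs in wild-type cluster 8 and 2 and 5 in *Meioc*-null, or means of 14.9 and 0.899 CPM. It passed there, but it met the limit of 40 UMIs for testing through the wild-type libraries only. In clusters 6 and 7 *Morc2b* had too few UMIs to test.

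Of the genes that trim break ends, *Nbn* (1.10 ± 0.14 in cluster 7, SE, edgeR adjusted p = 2.52e-05), *Rbbp8* (0.69 ± 0.14) and *Mre11a* (0.41 ± 0.13) were higher in wild type in cluster 7. *Exo1*, a resection nuclease, was higher in wild type in cluster 7 (0.47 ± 0.13) and in *Meioc*-null in cluster 8 (-1.12 ± 0.20). Its cluster 8 call was lost on matched cells (-0.43). In cluster 8 *Nbn*, *Rbbp8* and *Rad50* were higher in wild type by 0.34 to 0.63 on the log2 scale. On matched cells of cluster 8 the values were larger, at 1.43 for *Nbn*, 0.88 for *Rbbp8* and 0.71 for *Rad50*, and each passed.

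**Figure D4:**
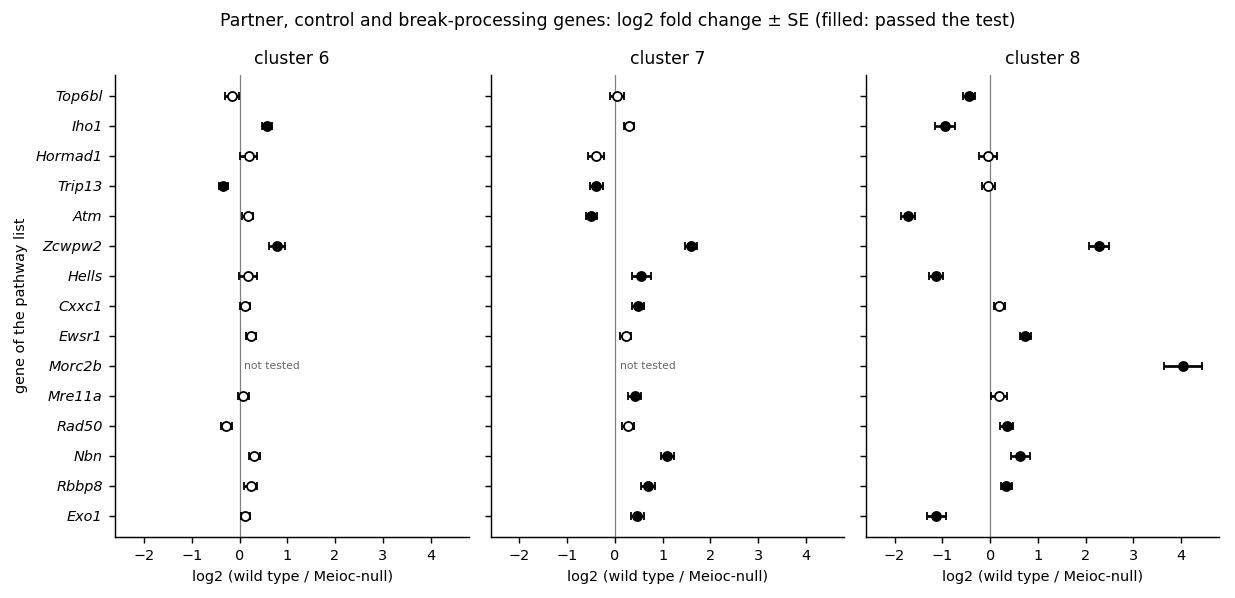
Log2 fold change of wild type over Meioc-null (x axis, edgeR, bars are SE, 2 libraries a genotype) of the 15 genes of the pathway list (y axis) in clusters 6, 7 and 8, filled where the gene passed the test. Zcwpw2 is above 0 in all 3 panels, Atm and Exo1 are below 0 in cluster 8, and Morc2b was tested in cluster 8 only.

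In Sertoli-like and myoid-like cells, which do not enter meiosis, 5 of the 7 genes had enough UMIs to test in each, and none passed with edgeR (0.0169% and 0.0952% of all genes) or DESeq2. *Spo11* was at 0.141 to 2.84 CPM in the 8 sums of these cells and *Mei4* at 1.9 CPM or less. None of the 5 had an unadjusted p under 0.05 in myoid-like cells, and *Prdm9* and *Zcwpw1* did in Sertoli-like cells (2.55% and 4.18% of all genes), with *Prdm9* at 4.17 and 4.52 CPM in wild type against 14.1 and 6.57 CPM in *Meioc*-null.

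Over the 18 wild-type sums (9 clusters, 2 libraries), some pairs of the genes had like courses and others did not. Pearson's r of log2(CPM + 1) was 0.92 between *Spo11* and *Ankrd31*, 0.96 between *Mei1* and *Mei4*, 0.89 between *Prdm9* and *Zcwpw1*, and -0.83 between *Spo11* and *Rec114*. Across these pairs it was 0.88 for *Mei4* with *Rec114*, 0.88 for *Mei1* with *Zcwpw1* and 0.82 for *Mei1* with *Prdm9*. The pairs are thus not separate groups. Sums of a library share an animal and neighbouring clusters share cell states, so these are descriptions. Among 16942 genes the courses most like those of the 7 were *Olfr20*, *Gm26787* and *4930429F24Rik* for *Spo11* (r = 0.98 each), *Setdb2*, *Adarb1* and *Iqsec1* for *Mei1* (0.99 each), and *Rfwd3*, *Dhps* and *Fam168a* for *Mei4* (0.98 each). They were *Sh3bgrl3*, *Shroom4* and *Klf10* for *Rec114* (0.98 to 0.99), *Zc3h8*, *Celf6* and *Ccdc73* for *Ankrd31* (0.97 to 0.98), *Ugt8a*, *Rab22a* and *Kdm5a* for *Prdm9* (0.98 to 0.99) and *Rnf214*, *Unc13b* and *Pms2* for *Zcwpw1* (0.97 to 0.99).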

How the data were processed

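The authors counted UMIs per gene and barcode with Cell Ranger 4.0.0 on mm10 (GRCm38), per the labels and the submitters' processing notes, which also name Seurat, and the deposited values are raw UMI counts of 1 library per pup. Barcodes with over 1000 genes and under 10% mitochondrial UMIs were kept, and the highest doublet scores were removed at 0.8% per 1000 barcodes. Wild-type germ cells (10689) were clustered in scanpy 1.11.5 (leidenalg 0.10.2, scikit-learn 1.9.0) without the 7 genes, the pathway list, cell-cycle genes and *Meioc*. Every germ cell then took the cluster most common among its 30 nearest wild-type cells (99.3% of wild-type cells kept their own). The rule for naming clusters was set after the clusters were seen. Counts of the cells of a cluster were added up within each library, and genes with at least 40 UMIs were tested with edgeR 4.0.16 (quasi-likelihood, R 4.3.3), Benjamini-Hochberg adjusted within a cluster. Replicate numbers mark batches, each a littermate pair per the labels, and same-numbered libraries deviated together (r = 0.402 to 0.57 in germ clusters, 0.24 in myoid-like and 0.0272 in Sertoli-like cells). DESeq2 1.42.0 was an alternative. The 7 genes and the lists were chosen with earlier results of these data known. Named genes were the 7, the 15 of the pathway list, *Meioc*, *Stra8* and the 3 genes most like each of the 7. Intervals cover counting error only. The scripts were tested on simulated data.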

Additional observations from a re-analysis of the deposited data

Results flagged for a closer look

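The 9 results here are those in which the genotype effect (log2 of wild type over *Meioc*-null) changed between neighbouring germ-cell clusters, by the edgeR test of the change itself, adjusted over 17926 genes. From cluster 6 to 7 the effect rose by 1.03 for *Spo11* (edgeR adjusted p = 0.0398) and by 0.32 for *Ankrd31* (0.00825). Over the same step it changed by -1.06 for *Rec114* (5.74e-07), by -0.70 for *Mei1* (0.00016), by -0.69 for *Mei4* (0.00131) and by -0.56 for *Prdm9* (3.1e-07). From cluster 7 to 8 it changed by -2.02 for *Zcwpw1* (5.56e-22), by -1.23 for *Prdm9* (2.4e-11) and by -1.22 for *Mei4* (0.0288). These fits had the library as a term, which takes out differences between mice. Without the library term the edgeR adjusted p from cluster 6 to 7 was 0.147 for *Spo11*, 0.456 for *Ankrd31* and 0.0737 for *Mei4*. From cluster 7 to 8 it was 0.0509 for *Mei4*, and none of these passed. Positions of the cells and *Stra8* levels differed between the genotypes in clusters 7 and 8, and their part in the 9 changes was not tested. The changes were not tested on cells matched on position. Between clusters 6 and 7 the values printed for matched cells lay closer together than the full values for *Mei1*, *Mei4* and *Prdm9*, and further apart for *Ankrd31*.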

How the results depend on the processing

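Of the member values in clusters 5 to 8, 345 kept their direction and side of the threshold, 16 lost and 28 gained a call, and 7 changed sign. The cause was not tested except where stated. With the replicate block the genes called were 592 in clusters 1 to 4 together (15 without it), 764 in cluster 5 (64) and 3947 in cluster 6 (1689). Of the 7 members 1, 5, 6 and 5 passed with the block in clusters 1 to 4, 5, 6 and 7, and of the pathway list 1, 2 and 7 in clusters 1 to 4, 5 and 6. The block changed no other call of a count beyond 1.5 times. DESeq2 called 40, 41 and 1051 genes in clusters 1 to 4, 5 and 6, and 7 pathway genes in cluster 8 beside 44.6% of all genes. Without the filter on low UMIs 297 genes passed in clusters 1 to 4 and 260 in cluster 5, with 2 members in cluster 5 and 1 pathway gene in each. With genes seen in at least 25% of cells, 4 genes passed in clusters 1 to 4, and 5 members in cluster 7 beside 47.7% of all genes. A Bonferroni adjustment over all clusters, stricter by construction, left 3, 1, 43, 255 and 1756 genes in clusters 1 to 4, 5, 6, 7 and 8, with 0, 0 and 3 members in clusters 6, 7 and 8 and 0, 1 and 4 pathway genes. Keeping doublets gave 41 genes in clusters 1 to 4. A mitochondrial limit of 5% left 19 genes in cluster 5 and 106 in cluster 6, 1 pathway gene in cluster 5 and 0 in cluster 6, and 1 member in cluster 6, and gave no value in clusters 7 and 8. Matching cells on position gave 30 genes in cluster 5 and 1 and 7 pathway genes in clusters 6 and 8, and *Mei1* and *Mei4* could not be tested in cluster 8. Placing cells without the called genes gave 6 members and 5 pathway genes in cluster 6, beside 2193 genes in all (18.3%, against 13.7%). Cluster 6 then held fewer *Meioc*-null cells (1159 and 781, against 1510 and 1126) and cluster 7 more (1123 and 951, against 858 and 735). Without the library term 3 members changed effect from cluster 6 to 7, beside 9.53% of all genes. The pathway alternatives were chosen after seeing the data.

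Leaving out 1 library, the lone library of a genotype being assumed to vary like the other pair, gave 110 to 301 genes in clusters 1 to 4, 7 to 93 in cluster 5, 800 to 1231 in cluster 6 and 2722 to 4104 in cluster 7. It gave 0 to 1 member in cluster 5 and 1 to 3 in cluster 6, and 0 to 1 pathway gene in clusters 1 to 4, 0 to 1 in cluster 5 and 1 to 3 in cluster 6.

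The position of rise in wild type moved with 40 bins to 73.6% for *Spo11*, 11.7% for *Rec114*, 68.3% for *Ankrd31* and 63.6% for *Zcwpw1*. Read at 25% of the highest bin it was 69.8% for *Spo11*, 30.3% for *Mei1*, 62.3% for *Ankrd31*, 54.0% for *Prdm9* and 53.0% for *Zcwpw1*. At a mitochondrial limit of 5% it was 93.0% for *Spo11*, 37.2% for *Mei1*, 49.7% for *Prdm9* and 34.5% for *Zcwpw1*, but only 30 and 38 wild-type cells were left in cluster 6 and 9 and 14 in cluster 7, so these positions say nothing of the order of onset. With doublets kept it was 8.98% for *Rec114*.

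The sign changed for values whose tests did not pass. Leaving out 1 library gave -0.0092 to 0.0962 for *Rec114* in cluster 5 (below 0 without wild type replicate 2, at -0.0045, or *Meioc*-null replicate 1). It gave -0.0325 to 0.25 for *Mei1* in cluster 7 (below 0 without *Meioc*-null replicate 1) and -0.30 to 0.0707 for *Mei4* in cluster 7 (above 0 without wild type replicate 2). *Mei1* was -0.0287 in cluster 7 and -0.21 in cluster 8 when cells were placed without the called genes, and *Mei4* in cluster 7 was 0.17 on matched cells. Depth limited *Mei1* and *Mei4* in cluster 8, with 5 to 28 UMIs a library, and *Spo11* in clusters 3 and 4, with 6 to 42.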
